A study of Arabidopsis thaliana with 8 samples.

Results

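PYK10 (AT3G09260, also BGLU23), BGLU28 (AT2G44460) and BGLU33 (AT2G32860) are beta-glucosidases of Arabidopsis thaliana. They are 3 of the 48 genes of this family named in RefSeq, and of the 24 family genes that had a probe set of their own in these data. The genes were picked by symbol after earlier results on the same arrays had singled them out, so their levels and differences are a description and carry no test. Each has 1 probe set that names it alone, and that probe set was used. A further probe set lists PYK10 together with another gene. Its log2 signal was between 3.00 and 3.60 on the wild type arrays and 2.0 to 2.58 on the fbn5-1 arrays, and it was not used.

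Leaf RNA of the accession Col-0 was measured on 8 Affymetrix arrays, 4 labelled wild type (control plants) and 4 labelled fbn5-1, a line with a T-DNA insertion in FBN5, which encodes a plastid fibrillin. All plants were 3 weeks old and untreated. They grew at 25 °C and 60% humidity, in days of 16 h light and 8 h dark, on 0.5x MS medium with 1% sucrose. The mutant is represented by this 1 insertion line, and the labels do not say whether replicates were separate plants or cultures, so the p-values cover the spread among these arrays and that spread may be technical.

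Beta-glucosidases remove a glucose residue from small molecules, and many of these enzymes release a defence compound or a hormone from a stored, inactive form. PYK10 is the main beta-glucosidase of ER bodies, spindle-shaped compartments of the endoplasmic reticulum found in Arabidopsis and its relatives, where it is kept apart from its substrates until the cell is damaged. It is best known from roots and seedlings, and it can break down indole glucosinolates. BGLU28 is known for its strong induction under sulfur deficiency, when it is thought to help recover sulfur from glucosinolates. Less is established for BGLU33, and no role is given to it here.

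The deposited signals were read as log2 values from their range, as their log base is not given. A difference of 1 is taken as a 2-fold change on that reading. Wild type array 4 stood apart from the other wild type arrays. Its correlation with them over 17147 tested probe sets was 0.929 to 0.933, against 0.985 to 0.988 among wild type arrays 1 to 3 and 0.970 to 0.985 among the fbn5-1 arrays. Between wild type array 4 and the fbn5-1 arrays it was 0.91 to 0.92. For wild type arrays 1 to 3 with the fbn5-1 arrays it was higher, at 0.950 to 0.964. The 4 wild type arrays are therefore described as arrays 1 to 3 and array 4, and values without array 4 are given where they differ in sign or call. The targeted gene, FBN5 (AT5G09820), did not check the labels: its signal was 3.54, 3.35, 3.43 and 5.15 on wild type arrays 1 to 4 and 4.71, 4.52, 4.76 and 4.58 on fbn5-1 arrays 1 to 4, which is not lower. The limma difference was 0.775 (SE 0.36, adjusted p = 0.173), and 1.2 without wild type array 4 (SE 0.11, limma adjusted p = 0.000534). The position of this probe set with respect to the T-DNA was not analysed here, so arrays are called by their labels and every direction below rests on those labels. Of the 2 leaf markers measured out of 10 listed, RCA (Rubisco activase) and PRK (a Calvin cycle kinase), neither was called between genotypes (adjusted p = 0.719 and 0.738, limma).

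PYK10 was bright and even on 7 arrays and low on 1. Its log2 signal was 9.23, 9.70 and 9.34 on wild type arrays 1 to 3, 6.84 on wild type array 4, and 9.72, 9.26, 9.59 and 9.36 on fbn5-1 arrays 1 to 4. Array 4 of the wild type lay 2.39 below the lowest of the other 7, and those 7 overlapped fully between genotypes. Against the mean of wild type arrays 1 to 3 (9.42 ± 0.25, SD, n = 3), the signal on array 4 was lower by -2.58, or 5.99-fold. A wild type array 4 signal more than 2 below that mean was found for 0.542% of all tested probe sets. Among the drops of all 17147 tested probe sets on that array, that of PYK10 had rank 49 by depth. A single array has no replicate, so this drop has no test. In leaf tissue, fewer cells of a type and less RNA per cell cannot be told apart.

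The genotype difference of PYK10 depended on that array. The fbn5-1 mean was 9.48 ± 0.21 (SD, n = 4) and the wild type mean 8.78 ± 1.31 (SD, n = 4), a difference of 0.705. Without wild type array 4 the difference was 0.059, and the spread of the remaining wild type arrays was close to that of the fbn5-1 arrays.

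**Figure D1:**
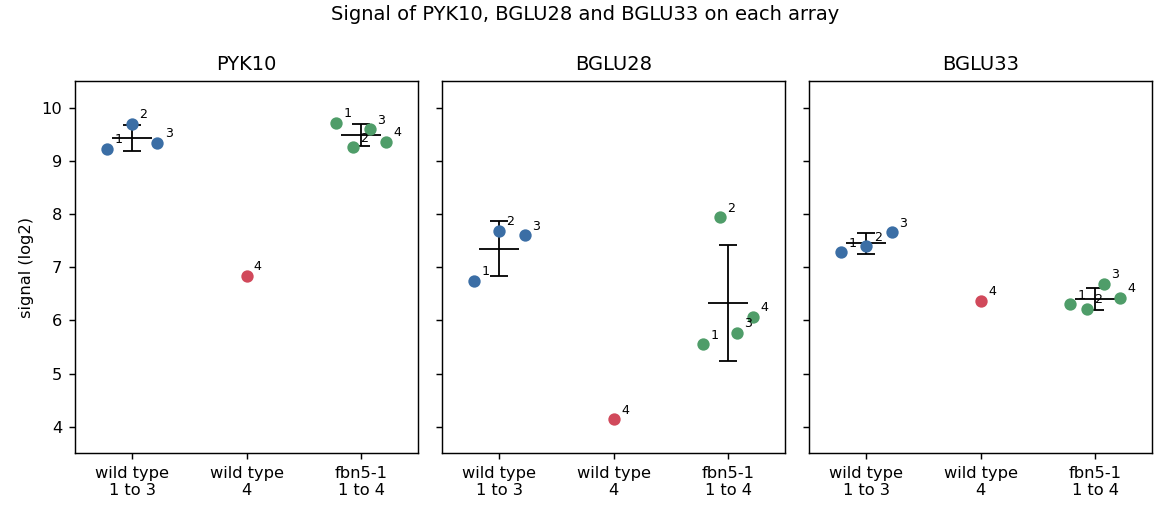
Log2 signal (vertical axis) of PYK10, BGLU28 and BGLU33 on wild type arrays 1 to 3, wild type array 4 and the 4 fbn5-1 arrays; each point is an array with its replicate number, and bars give the mean ± SD of the 3 and 4 arrays. PYK10 is low on wild type array 4 alone (6.84), BGLU28 is lowest there (4.14), and BGLU33 on that array (6.37) lies among the fbn5-1 arrays.

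Genes of the ER body were read beside PYK10. The list holds 18 other genes, of which 10 had a probe set of their own and 7 were bright enough to be tested. They are NAI2, which is needed for ER bodies to form, the jacalin-related lectins JAL22, JAL23, JAL33 and JAL34, which belong to the lectin family that joins PYK10 in protein complexes, AT1G54010 (GLL23, a GDSL lipase-like protein of the same complexes) and BGLU21, a close relative of PYK10 known from roots. Array 4 of the wild type was more than 1 below the mean of wild type arrays 1 to 3 for 4 of these 7 genes, against 2.91% of all tested probe sets. The median of this difference was -1.04 over the 7 genes and -0.08 over all tested probe sets. Without wild type array 2 the count was 2, with JAL22 and JAL23 left.

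JAL23 had the deepest drop of the 7. Its signal was 6.26, 6.25 and 7.40 on wild type arrays 1 to 3, 3.70 on array 4, and 6.69, 5.40, 6.14 and 5.89 on the fbn5-1 arrays. JAL22 was at 4.77, 4.93 and 4.99 on wild type arrays 1 to 3, at 3.09 on array 4, and at 5.02, 4.57, 5.28 and 4.60 on the fbn5-1 arrays. NAI2 was at 6.85, 7.96 and 6.64, then at 5.83 on array 4, and at 7.29, 6.67, 6.94 and 7.24 on the fbn5-1 arrays. As with PYK10, these genes had their lowest value of the 8 on wild type array 4. Such a lowest value on that array was found for 25.4% of all tested probe sets. The other wild type arrays and the fbn5-1 arrays overlapped. JAL33, at 2.33 on array 4 against 2.90 to 3.35 on wild type arrays 1 to 3, and JAL34, at 4.12 against 4.17 to 5.01, had their lowest value there too.

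Between genotypes, 1 of the 7 ER body genes was called, against 16.8% of all tested probe sets. AT1G54010 was at 4.74, 5.27, 4.88 and 3.92 on wild type arrays 1 to 4 and at 6.34, 5.88, 6.45 and 6.03 on fbn5-1 arrays 1 to 4. It rose by 1.47 (SE 0.27, limma adjusted p = 0.00798), and by 1.21 without wild type array 4 (SE 0.17, limma adjusted p = 0.00234). The other 6 had differences between -0.14 and 0.42 and were not called. Without wild type array 4 they were again not called, and their differences ran from -0.61 (JAL23) to 0.052 (JAL34), with NAI2 at -0.12, JAL22 at -0.029 and JAL33 at -0.15. Negative differences then numbered 5 of the 7, against 1 of the 7 with that array. The interval for NAI2 ran from -0.64 to 1.07 and that for JAL23 from -1.40 to 1.65, so these arrays leave room for differences of either sign. The list median was 0.15, beside -0.015 over all tested probe sets, and its sign turned without wild type array 4, to -0.12 beside -0.023. NAI1, the transcription factor that switches on PYK10 and NAI2, was dim on all arrays: 2.26, 2.26, 2.1 and 2.29 on wild type arrays 1 to 4 and 2.44, 2.86, 2.74 and 2.50 on the fbn5-1 arrays, all but 1 value below the filter value of 2.79.

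**Figure D2:**
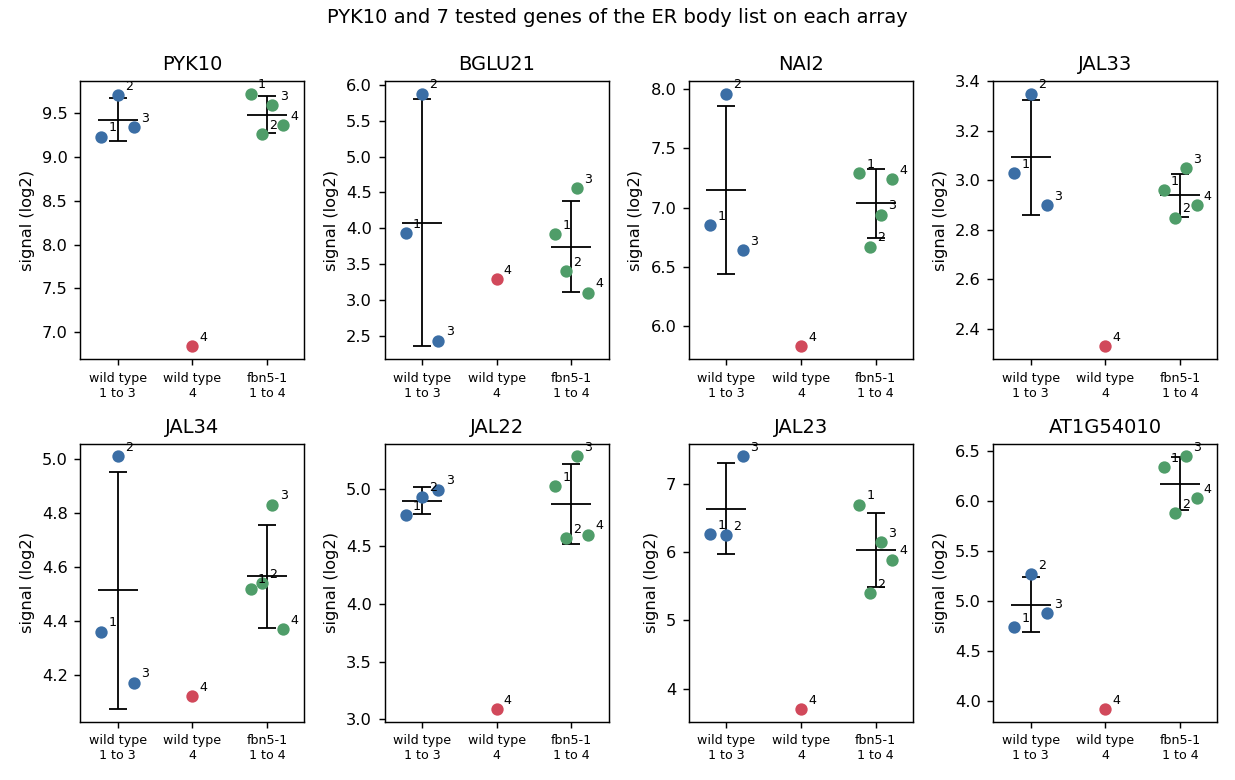
Log2 signal (vertical axes, each with its own range) of PYK10 and of the 7 tested genes of the ER body list on wild type arrays 1 to 3, wild type array 4 and the fbn5-1 arrays; points are arrays with their replicate number, bars the mean ± SD. Array 4 of the wild type is the lowest of the 8 for PYK10, NAI2, JAL22, JAL23, JAL33, JAL34 and AT1G54010, and for 25.4% of all tested probe sets. BGLU21 is highest on wild type array 2.

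The 7 arrays without wild type array 4 were then compared in their smaller differences. Pearson's r with PYK10 over those 7 arrays was 0.73 for NAI2, 0.69 for JAL34, 0.66 for BGLU21, 0.64 for JAL22, 0.60 for JAL33, 0.47 for AT1G54010 and 0.21 for JAL23. Over all 8 arrays the values in the same order were 0.81, 0.60, 0.33, 0.96, 0.89, 0.75 and 0.85, lower for JAL34 and BGLU21 and higher for the other 5. These are descriptions over few arrays that share genotype, scaling and the position of wild type array 4.

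A different array stood out for the root-type relatives of PYK10. BGLU21 was at 3.93, 5.88, 2.43 and 3.29 on wild type arrays 1 to 4 and between 3.10 and 4.56 on the fbn5-1 arrays. BGLU22, its neighbour and close relative, was at 2.39, 5.86, 1.79 and 1.77 on the wild type arrays and between 1.80 and 3.01 on the fbn5-1 arrays. Both were highest on wild type array 2, where PYK10 and NAI2 also had their highest wild type values (9.70 and 7.96). Among root markers, 4 of 16 listed had a probe set of their own: these same BGLU21 and BGLU22, and the root hair expansins EXPA7 and EXPA18. EXPA18 was at 3.20 on wild type array 2 and between 1.94 and 2.67 on the other 7 arrays, while EXPA7 was between 2.38 and 2.83 on all 8. The summed linear signal of the 4 markers was 132 on wild type array 2, 19.3 to 30.3 on the other wild type arrays and 23.3 to 45.1 on the fbn5-1 arrays. On wild type array 4 it was 22.3, within the range of wild type arrays 1 and 3. Most of the sum on wild type array 2 came from BGLU21 and BGLU22, and of the 4 markers BGLU21 alone passed the filter. The part of root RNA in the level of PYK10 was not tested.

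BGLU28 varied most among the 3 genes, in both genotypes. Its log2 signal was 6.75, 7.69 and 7.60 on wild type arrays 1 to 3, 4.14 on wild type array 4, and 5.55, 7.94, 5.77 and 6.07 on fbn5-1 arrays 1 to 4. Array 4 of the wild type was the lowest of the 8, at 1.41 below the next array. Of the fbn5-1 arrays, 1, 3 and 4 lay below wild type arrays 1 to 3, whereas array 2 had the highest value of all 8. Relative to wild type arrays 1 to 3 (7.35 ± 0.52, SD, n = 3), wild type array 4 was lower by -3.21, or 9.23-fold, which put it at rank 19 of 17147 among the deepest drops on that array. With 16 added to the linear signal, which damps changes near the floor, this drop was -2.42.

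The genotype means of BGLU28 were 6.55 ± 1.66 for wild type and 6.33 ± 1.09 for fbn5-1 (SD, n = 4 each), a difference of -0.21 that was smaller than either spread. It was -1.01 without wild type array 4, and its sign turned without wild type array 2 (0.17), wild type array 3 (0.14) or fbn5-1 array 1 (0.048). No direction between genotypes can be read from these arrays for BGLU28.

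Sulfur genes were examined because of what BGLU28 is known for. Of the 14 other genes of the sulfur deficiency list, 1 had a probe set of its own. This gene, AT1G04770, fell by 0.81 in fbn5-1 (SE 0.19, limma adjusted p = 0.0231), from 4.26 ± 0.15 to 3.45 ± 0.40 (SD, n = 4 each). Every fbn5-1 array, at 3.49, 3.91, 3.48 and 2.93, lay below every wild type array, at 4.29, 4.41, 4.05 and 4.29, an arrangement found for 11.9% of all tested probe sets. Its level on wild type array 4 was that of the other wild type arrays, unlike BGLU28. The call ended when wild type array 1, wild type array 2, fbn5-1 array 1 or fbn5-1 array 3 was left out (limma adjusted p = 0.0578, 0.0633, 0.0522 and 0.0551), while the difference in these fits stayed between -0.76 and -0.82. With 16 added to the linear signal the difference was -0.38 and was called (limma adjusted p = 0.018).

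A second list, of sulfur assimilation, was drawn from the symbols on the array once these were known; it holds 7 genes, AT1G04770 among them, of which 6 were tested. In it 3 were called, 1 higher (against 8.22% of all tested probe sets) and 2 lower (against 8.55%). SIR, the sulfite reductase that makes sulfide in plastids, rose by 0.55 (SE 0.11, limma adjusted p = 0.0119), from 7.73, 7.78, 7.92 and 7.87 on the wild type arrays to 8.46, 8.57, 8.42 and 8.06 on the fbn5-1 arrays. OASA2, listed as an isoform of the enzyme family that makes cysteine from sulfide and O-acetylserine, had 4.29, 4.76, 5.07 and 5.54 on wild type arrays 1 to 4 and 3.45, 3.74, 4.12 and 3.45 on fbn5-1 arrays 1 to 4. All fbn5-1 arrays of OASA2 lay below all wild type arrays, as for 11.9% of all tested probe sets. OASA2 fell by 1.23 (SE 0.26, limma adjusted p = 0.0154), and by 0.69 with 16 added to the linear signal (called as well). CBL, MGL and APS3, with differences of 0.18, 0.02 and -0.17, were not called; without wild type array 4 these were 0.20, -0.072 and 0.059, again not called. Both directions thus occur among the sulfur genes measured. Relative to wild type arrays 1 to 3, wild type array 4 differed by 0.060 for SIR, 0.83 for OASA2 and 0.040 for AT1G04770. A deep drop on that array would widen the wild type spread and make a call less likely. No contrast with BGLU28 is therefore drawn from the called genes. Of all 6 tested genes, 0 were more than 1 lower there, against 2.91% of all tested probe sets.

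Glucosinolates are the substrates linked to PYK10 and BGLU28, and 5 genes of their transport, synthesis and jasmonate regulation were also drawn from the symbols on the array. With limma 0 of the 5 were called, against 16.8% of all tested probe sets. An unadjusted p under 0.05 was found for 1 of the 5, against 32.8% of all tested probe sets: UGT74B1, a glucosyltransferase of glucosinolate synthesis, with a difference of 0.385. MYC4, a jasmonate-response factor, was at 4.78, 3.98, 4.39 and 3.37 on the wild type arrays and at 3.73, 3.79, 3.65 and 3.13 on the fbn5-1 arrays. A drop of more than 1 on wild type array 4 from arrays 1 to 3 was found for 2.91% of all tested probe sets. Of these 5 genes it was found for MYC4 alone (-1.01). Its genotype difference of -0.56 (limma adjusted p = 0.215) was called only without wild type array 4 (-0.81, SE 0.22, limma adjusted p = 0.0268). GTR1, a glucosinolate transporter, was higher on wild type array 4 (7.33) than on wild type arrays 1 to 3 (6.31 to 6.49), in the opposite sense to PYK10 and BGLU28, and GTR2, its relative, had a difference between genotypes of -0.27.

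**Figure D3:**
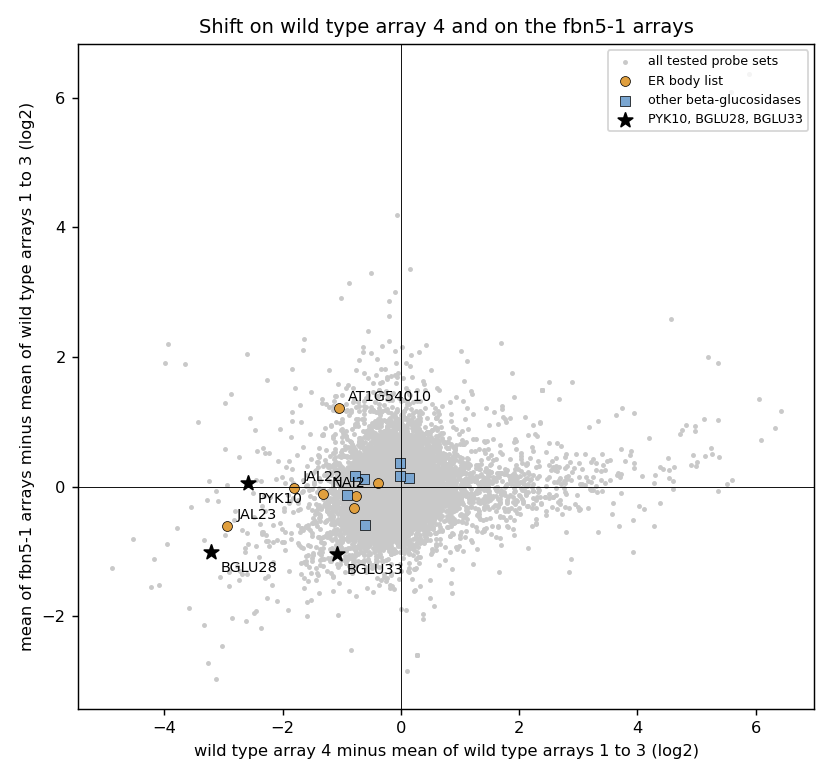
Each grey point is 1 of the 17147 tested probe sets, orange circles are ER body genes, blue squares other beta-glucosidases and stars the 3 members; the horizontal axis is the log2 signal of wild type array 4 minus the mean of wild type arrays 1 to 3, and the vertical axis is the mean of the fbn5-1 arrays minus that same mean, so both axes share wild type arrays 1 to 3. PYK10 lies left of centre with almost no vertical shift (-2.58 and 0.059), BGLU28 lies left and low (-3.21 and -1.01), and BGLU33 has nearly equal shifts (-1.08 and -1.04).

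BGLU33 divided the arrays in another way. Its log2 signal was 7.28, 7.40 and 7.66 on wild type arrays 1 to 3, 6.37 on wild type array 4, and 6.30, 6.22, 6.69 and 6.43 on fbn5-1 arrays 1 to 4. All fbn5-1 arrays lay below all of wild type arrays 1 to 3, and wild type array 4 lay within the fbn5-1 range. Relative to wild type arrays 1 to 3 (7.45 ± 0.19, SD, n = 3), the fbn5-1 mean (6.41 ± 0.21, SD, n = 4) was lower by -1.04, or 2.05-fold, and wild type array 4 was lower by -1.08. This arrangement, with wild type array 4 and all fbn5-1 arrays under wild type arrays 1 to 3, was found for 11.6% of all tested probe sets. Over all 4 wild type arrays (7.18 ± 0.56, SD, n = 4) the difference was -0.77. It stayed negative when each array was left out in turn, from -1.04 to -0.61.

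The genes beside BGLU33 were measured independently of how it was chosen. In the RefSeq gene order, AT2G32870 and AT2G32880 follow it directly, and both fell in fbn5-1. AT2G32870 was at 8.95, 8.74, 8.64 and 8.59 on wild type arrays 1 to 4 and at 7.14, 7.16, 7.64 and 7.06 on fbn5-1 arrays 1 to 4, a difference of -1.48 (SE 0.14, limma adjusted p = 0.000882). AT2G32880 was at 8.52, 8.66, 8.61 and 8.33, and at 8.06, 7.78, 7.90 and 7.55, a difference of -0.71 (SE 0.12, limma adjusted p = 0.00608). In both genes all fbn5-1 arrays lay below all wild type arrays, an arrangement found for 11.9% of all tested probe sets. A call as lower was made for 8.55% of all tested probe sets. For both genes wild type array 4 was the lowest wild type array, by 0.05 for AT2G32870 and by 0.19 for AT2G32880. It still lay above every fbn5-1 array, whereas for BGLU33 it lay within the fbn5-1 range. On the other side, AT2G32850 and AT2G32840 had differences of -0.13 and -0.29 and were not called. Looking further, up to 5 places away, a range chosen after these values were seen, brought no other tested gene.

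**Figure D4:**
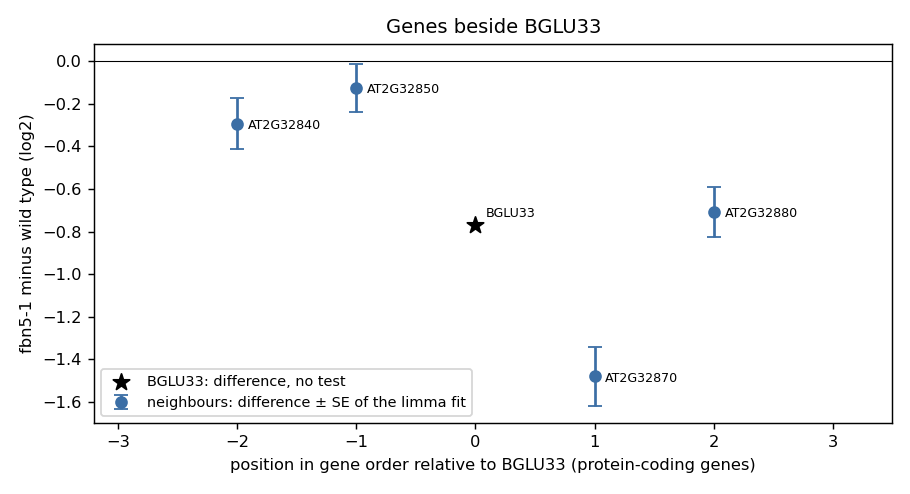
Difference in log2 signal, fbn5-1 minus wild type (4 arrays each), for BGLU33 and the tested genes beside it, by their place in the RefSeq order of protein-coding genes; bars are the SE of the limma fit and BGLU33 is drawn without one. Both genes after BGLU33 lie well below 0 (-1.48 and -0.71), and the 2 before it lie closer to 0 (-0.13 and -0.29).

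Within 2 places of PYK10 and BGLU28 the only tested genes were AT3G09250, AT3G09280 and BGLU15. None of them was called, against 16.8% of all tested probe sets. BGLU28 lies in a run of beta-glucosidase genes between BGLU15 and BGLU29. BGLU15, its neighbour on one side, was at 3.13, 3.77 and 3.14 on wild type arrays 1 to 3, 2.44 on wild type array 4 and 2.63 to 3.88 on the fbn5-1 arrays, with a difference between genotypes of 0.090 (SE 0.32, limma adjusted p = 0.876), and of -0.14 without wild type array 4 (not called). BGLU29, on the other side, was dim throughout, from 1.15 to 1.84. Between 3 and 5 places from BGLU28, 4 more genes were tested and none was called with all arrays, against the same 16.8%. Without wild type array 4, 2 of these were called as lower in fbn5-1, against 12.9% of all tested probe sets. AT2G44500, 4 places away, had a difference of -0.94 with all arrays (limma adjusted p = 0.130) and of -0.48 without that array (limma adjusted p = 0.0245). It was at 6.13 on wild type array 4, 4.16 to 4.52 on wild type arrays 1 to 3 and 3.68 to 3.88 on the fbn5-1 arrays. AT2G44410, 5 places away, had -0.25 (limma adjusted p = 0.137) and -0.33 (limma adjusted p = 0.032). AT3G09250, next to PYK10, had a difference of 0.34, and AT3G09280, 2 places away on the other side, one of 0.21; neither was called, with or without wild type array 4.

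The other 21 members of the family with a probe set of their own give the setting for these 3. Of them, 8 were bright enough to be tested and 13 were below the filter value. With limma, 0 of the 8 were called between genotypes, against 16.8% of all tested probe sets, and 0 had an unadjusted p under 0.05, against 32.8%. They were also 0 without wild type array 4, against 22.5% of all tested probe sets. Differences ran from -0.44 (BGLU44) to 0.37 (BGLU32), with a median of 0.13. The 95% interval for BGLU44 was -1.06 to 0.19 and that for BGLU32 was -0.08 to 0.82. Array 4 of the wild type was more than 1 below wild type arrays 1 to 3 for 0 of the 8. Over all tested probe sets that share was 2.91%. Array 4 was more than 1 above them for 0, against 3.68% of all tested probe sets. It was below each of them for 4, against 43.8%. The 4 were BGLU15, BGLU16, BGLU40 and BGLU44, with drops of -0.91, -0.77, -0.63 and -0.61. BGLU21 was lower there by -0.79, between the levels of wild type arrays 1 and 3. The median of this difference was -0.62 over the 8 genes, beside -0.08 over all tested probe sets. BGLU42 was even on all arrays, from 4.48 to 4.98, with wild type array 4 at 4.77. BGLU25 was likewise between 4.02 and 4.61 everywhere.

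**Figure D5:**
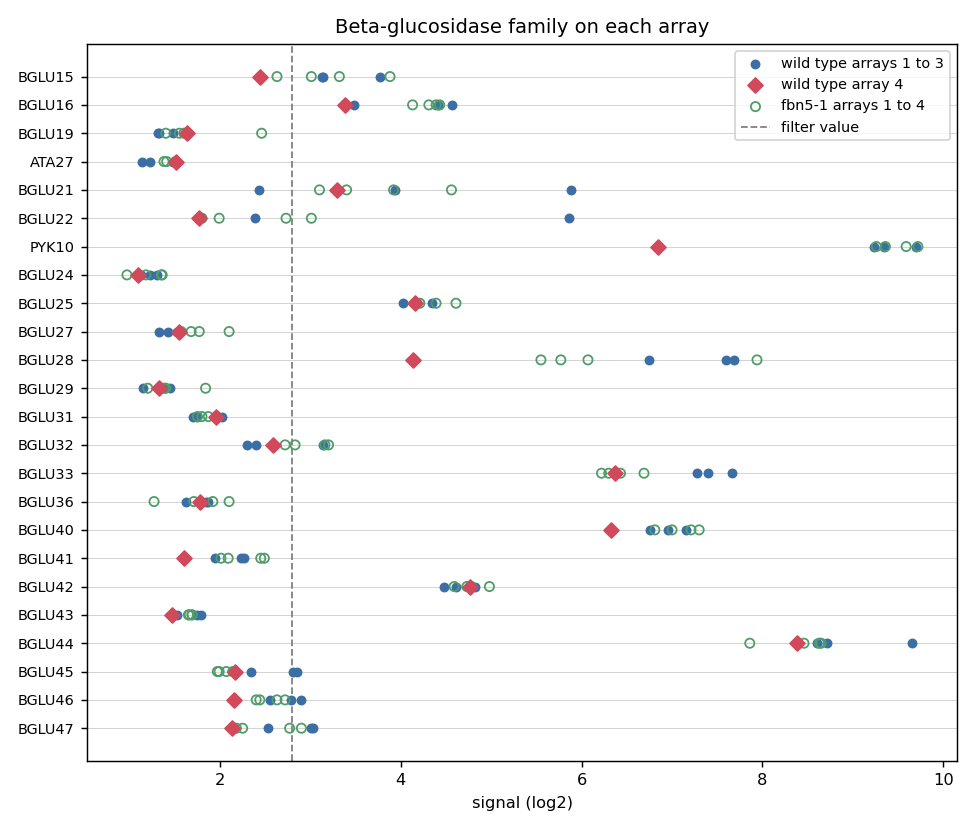
Log2 signal (horizontal axis) of the 24 beta-glucosidase genes with a probe set of their own, in order of their BGLU number (ATA27 is BGLU20, PYK10 is BGLU23); filled circles are wild type arrays 1 to 3, diamonds wild type array 4, open circles the fbn5-1 arrays, and the dashed line the filter value of 2.79. The diamonds of PYK10 and BGLU28 stand apart to the left, whereas BGLU25 and BGLU42 have all arrays close together; levels of different genes come from different probes and are not to be compared.

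The 3 members did not follow one pattern. Pearson's r between PYK10 and BGLU28 was 0.64 over 8 arrays and -0.39 over the 7 without wild type array 4. It was 0.28 and -0.08 for PYK10 with BGLU33, and 0.52 and 0.45 for BGLU28 with BGLU33. These are descriptions over few arrays.

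The genes most like each member over the 8 arrays differed as well. For PYK10 they were AT1G71410, nad5 and AT4G02425, with r of 0.98 each, and over the 7 arrays without wild type array 4 these values were 0.61, 0.56 and 0.71. Their drops on array 4 were much smaller than that of PYK10, at -0.50, -0.37 and -0.85. The genes most like BGLU28 were AT4G37445, AT3G05400 and AT3G42860, with r of 0.97, 0.96 and 0.94, and of 0.93, 0.93 and 0.88 without array 4. Chosen for that r, all 3 were lowest on wild type array 4 and had their highest fbn5-1 value on array 2, as BGLU28 did. The drop on wild type array 4 was -1.87 for AT3G05400 and -0.39 for both AT4G37445 and AT3G42860. AT3G05400 was at 3.26 there against 4.66 to 5.40 on wild type arrays 1 to 3. On fbn5-1 array 2 it was at 5.17, against 3.88 to 4.27 on the other fbn5-1 arrays. For BGLU33 they were AT1G53190, AT5G60460 and AT1G05785, with r of 0.99, 0.99 and 0.98 over 8 arrays, and equally 0.99, 0.99 and 0.98 over 7. AT1G53190 was at 5.07 to 5.36 on wild type arrays 1 to 3, 4.62 on wild type array 4 and 4.46 to 4.72 on the fbn5-1 arrays. The arrays share genotype and scaling, and these values are a description.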

How the data were processed

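The log2 signals were deposited by the authors as 1 value per probe set and array. The submitters' processing notes name MAS5, and background correction, log base and scaling are not given in the sources used here; values between 0.37 and 12.77 were read as log2. The series table and the series matrix were identical over their 28583 shared probe sets, and the matrix was used, because the platform's gene table names its probe sets (16746 with 1 symbol). Symbols were updated through RefSeq (TAIR10.1), used for names and gene order alone. Probe sets whose mean over 8 arrays exceeded the 40th percentile (2.79) were tested, 17147 in all, with limma 3.58.1 in R 4.3.3 (lmFit, eBayes with an intensity trend), two-sided, with Benjamini-Hochberg adjustment over all of them and calls at an adjusted p under 0.05. The fit was tested on simulated data. Differences are fbn5-1 minus wild type. Array medians were 3.42 to 3.49. The number of arrays limits the precision.

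The 3 members and all gene lists were chosen with earlier results of these data known; the sulfur assimilation and glucosinolate lists were made after the array's symbols were known. Named were the members, called family and list genes, the 3 genes most like each member by Pearson's r, gene-order neighbours and FBN5; genes named beyond that were chosen after their values were seen. Of the other lists, glucosinolate breakdown and dark or sugar starvation had no gene with a probe set of its own, and jasmonate and wounding had 1, PDF1.2, which was below the filter value. Genes without such a probe set were not analysed here. Alternatives were 2 scalings, 16 added to the linear signal, 2 filters, no trend, the replicate number as a block and leaving out each array. Each gene named had 1 probe set of its own, so averaging probe sets changed nothing.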

Additional observations from a re-analysis of the deposited data

Results flagged for a closer look

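Groups of 4 arrays were searched for a single array far from the other 3, in 82 groups of 41 genes; chance alone marks about 1 in 20 such groups. The genes share the same arrays, so the groups are not independent and this rate is no test of their number. PYK10 was chosen from these data, so its mark is a description. The same holds for BGLU22 and NAI1, which were added to the search by name although below the filter value. Other genes below that value were not searched. Wild type array 4 was the single far array for 5 genes. PYK10 was at 6.84 there against 9.23 to 9.70 on the other wild type arrays, JAL22 at 3.09 against 4.77 to 4.99, and AT2G44410, a gene 5 places from BGLU28, at 6.54 against 6.84 to 6.87. It was high there for APS3, at 6.13 against 5.10 to 5.27, and for FBN5 (AT5G09820), at 5.15 against 3.35 to 3.54. BGLU22 was marked for wild type array 2, at 5.86 against 1.77 to 2.39. NAI1 was marked for wild type array 3, at 2.1 against 2.26 to 2.29, all below the filter value.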

How the results depend on the processing

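The probe sets called between genotypes were 2876, 1731 with the replicate block and 1736 to 3854 when 1 array was left out. Deviations from the group means had r of 0.157, -0.187, -0.037 and 0.0019 between arrays with the same replicate number. This gave no clear sign of pairing but cannot exclude it, since wild type array 4 weighs on every wild type deviation. The block changed none of the calls of named genes. The family count stayed at 0 called in all alternatives, 21 genes tested without a filter included. The sulfur deficiency list had 1 gene called, 0 with the 60th percentile filter, which removed that gene, and 0 to 1 when 1 array was left out. The glucosinolate list had 0 to 1. Wild type array 4 differed by more than 1 from arrays 1 to 3 in 1130 probe sets, in 562 with 16 added and in 736 with the 60th percentile filter, which tests fewer. For the ER body list the 4 genes lower there became 2 with 16 added, and 2 to 5 when 1 of arrays 1 to 3 was left out. The drop of BGLU28 on that array was -2.42 with 16 added. The differences of PYK10, BGLU28 and BGLU33 moved by less than the spread between replicates in every alternative, though that spread includes wild type array 4 and the sign of BGLU28 turned as described. The causes were not tested. Signals below the filter value cannot be told from the floor.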
